A study of Rattus norvegicus with 4 samples.

Results

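The autophagy machinery is the set of proteins that builds the autophagosome, the double membrane that encloses cytoplasm and carries it to the lysosome. The 34 genes described here were taken from a list that covers the whole pathway, from its initiating kinases to its cargo receptors, and each gene was represented by the probe set with the highest mean over all arrays among the probe sets that carry its symbol alone. On this rule 30 of the 34 genes were measured, all 30 passed the filter on dim probe sets, and they stood among 10035 named genes tested in all. Map1lc3b, Gabarapl2 and Nbr1 lay only on probe sets that also carry a second gene's symbol, and Atg4c had no probe set under its own symbol, so these 4 genes are not analysed here.

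The study asked how cAMP, the second messenger of follicle-stimulating hormone, changes transcripts in Sertoli cells, the somatic nurse cells of the seminiferous tubule. One group held Sertoli cells grown with cAMP for 72 h (2 arrays), and the other held untreated Sertoli cells grown for the same 72 h (2 control arrays). All cells came from male Sprague-Dawley rats 20 days old and were plated in serum-free medium, and which cAMP compound was added, and at what concentration, is not stated in the labels. The labels call the samples biological replicates without saying whether separate animals or cell preparations lay behind them, and every p-value therefore reflects only the spread among these 4 samples, part or all of which may be technical.

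Autophagy starts when the ULK1 kinase complex activates a lipid kinase complex built on Beclin 1, which marks the forming membrane with phosphatidylinositol 3-phosphate (PI3P). Lipid transfer proteins and PI3P-binding WIPI proteins then extend that membrane, and ubiquitin-like conjugation systems attach LC3 and GABARAP proteins to it, where receptors such as p62 bring in cargo. Nutrients hold the pathway in check through the kinase mTORC1, and in Sertoli cells autophagy is known for its part in the handling of engulfed germ cell remnants and in the turnover of cytoskeletal proteins.

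Most of the measured pathway genes showed no difference between cells with and without cAMP that passed the test. Of the 30 genes, 2 rose and 1 fell, and 27 did not pass the threshold, an adjusted p under 0.05 by limma with Benjamini-Hochberg adjustment over all 18625 probe sets tested. Map1lc3a, which encodes an LC3 protein of the autophagosome membrane, was 1.70-fold higher with cAMP. Wipi1, a PI3P-binding protein of the forming membrane, was 1.63-fold higher, and Uvrag, a subunit of the Beclin 1 lipid kinase complex, stood at 0.59 times its control level (each a ratio of geometric means of the signals). Of all tested probe sets 7.29% were higher, 6.39% lower and 13.7% either. Across all tested genes 8.27% were higher, 7.14% lower and 15.4% changed in either direction, so 3 of 30 (10.0%) is a share near or under the background and is not a result about the pathway as a whole.

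Differences below are log2 differences, cAMP minus control, of log2(signal + 16), given ± their standard error from limma. The pseudocount of 16 shrinks the differences of dim genes. The members' differences ran between -0.71 and 0.75, and none of the 30 reached a 2-fold difference, a log2 value of 1, which 8.08% of all tested genes did. Their median was 0.035 (all tested genes -0.029) and the median of their absolute differences 0.261 (all tested genes 0.259). At an unadjusted p under 0.05, 8 of the 30 (26.7%) passed, against 30.0% of all tested genes. The 95% interval of the difference, not adjusted for the number of genes, lay wholly inside a 2-fold change for 27 of the 30 members and 77.1% of all tested genes. The intervals of Map1lc3a, Wipi1 and Uvrag reached past it. With a pseudocount of 4, which shrinks dim genes less, the count was again 27 with the same 3 outside, against 67.6% of all tested genes.

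**Figure D1:**
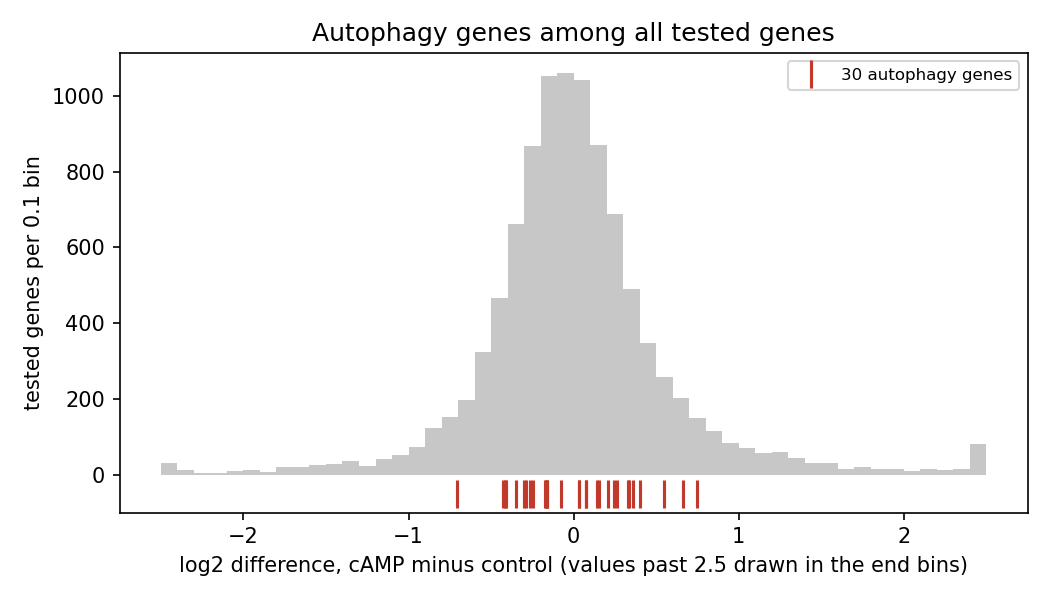
Distribution of log2 differences (cAMP minus control, horizontal axis) over the 10035 tested genes, as grey bars of 0.1 width with the number of genes on the vertical axis, and the 30 autophagy genes as red ticks below. The ticks lie between -0.71 and 0.75, around the peak of the distribution and inside its tails.

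The 2 arrays of a group lay close together for these genes. The median gap between replicates on the log2(signal + 16) scale was 0.082 on the cAMP arrays and 0.179 on the control arrays for the members, against 0.142 and 0.207 for all tested genes, and 21 of the 30 members had the larger gap on the control arrays. In 24 of the 30 both cAMP arrays lay on one side of both control arrays, a share of 80.0% against 61.3% of all tested genes. They lay above in 12 and below in 12, against 28.8% and 32.6% of all tested genes. Of the 30 differences, 16 were positive and 14 negative.

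**Figure D2:**
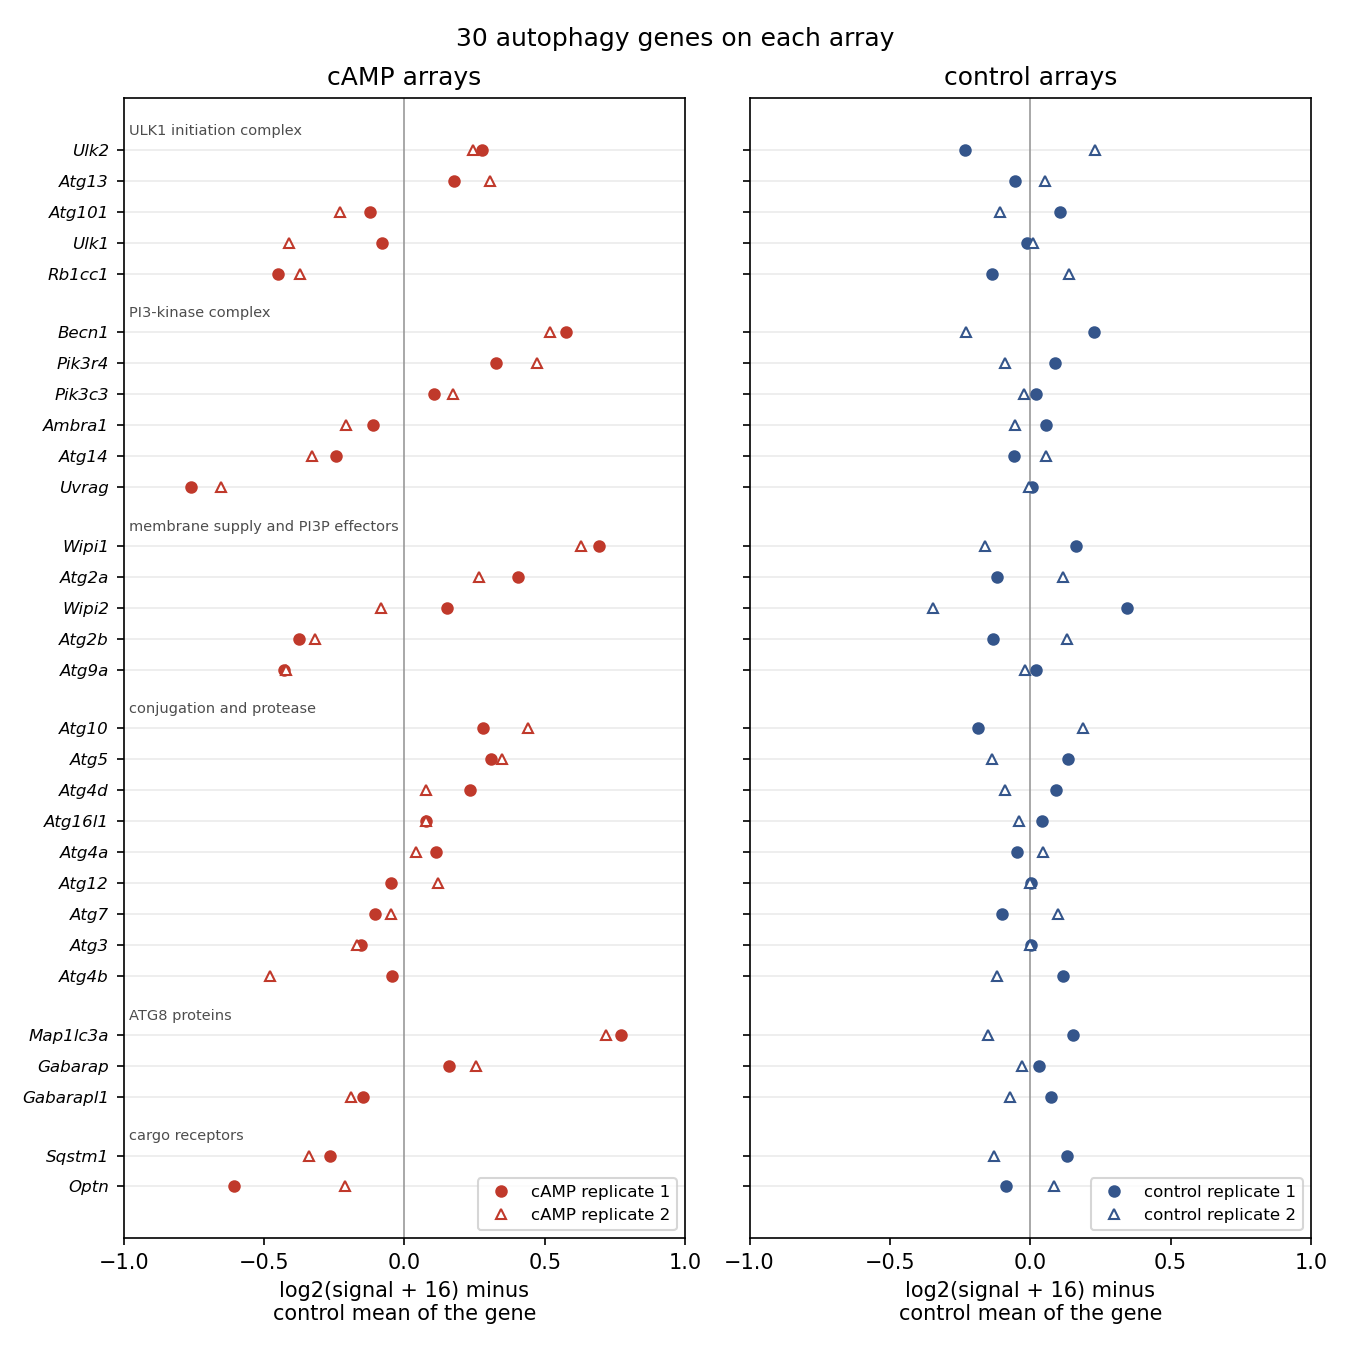
Each of the 30 genes on each array, as log2(signal + 16) minus the mean of that gene's control arrays (horizontal axis), with the cAMP arrays in the left panel and the control arrays in the right panel. Circles are replicate 1 and triangles replicate 2, and genes are grouped by role. Map1lc3a and Wipi1 stand farthest to the right on both cAMP arrays and Uvrag farthest to the left, while the control pairs of Wipi2, Ulk2 and Becn1 are the most spread.

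The cells carried Sertoli markers on every array. Of 11 Sertoli markers with a probe set of their own, 10 lay above the background of 14.2 on all 4 arrays, among them Clu, Cldn11 and Wt1. Those 3 did not pass by limma, but 5 of the 10 tested Sertoli markers did, against 15.4% of all tested genes. Inha (4.17-fold, adjusted p = 0.000293), Dhh (1.71-fold) and Kitlg (1.5-fold) were higher with cAMP. Gata4 (0.51 times the control level, adjusted p = 0.00297) and Aard (0.7 times) were lower. Germ cell transcripts were present in both groups: Sycp3 read 2258 and 1754 on the cAMP arrays and 2340 and 2298 on the control arrays. The summed signal of 7 germ cell markers was 3053 and 2294 on the cAMP arrays and 3276 and 3032 on the control arrays, with Prm1 and Tnp1 at or below background on all 4. The summed signal of 6 peritubular myoid markers was 165.5 and 215.4 on the cAMP arrays, against 600.3 and 442.8 on the control arrays, with 3 of the 6 above background on all arrays. Tagln made up most of that gap, at 1.3 and 7.4 on the cAMP arrays against 344.5 and 264.3 on the control arrays. Without it the sums of the other 5 overlapped, at 164.2 and 208.0 on the cAMP arrays and 255.8 and 178.5 on the control arrays. By limma Tagln and Synpo2 fell, and Des of the same list rose, at 58.1 and 68.3 on the cAMP arrays against 19.7 and 19.5 on the control arrays (adjusted p = 0.0102). The sum of 5 endothelial markers was 101.2 and 94.1 on the cAMP arrays, against 234.4 and 162.4 on the control arrays, with Pecam1, Vwf and Emcn at or below background throughout. Kdr carried that gap, at 57.5 and 58.1 on the cAMP arrays against 187.3 and 130.8 on the control arrays, and the other 4 summed to 43.7 and 36.0 on the cAMP arrays and 47.1 and 31.6 on the control arrays. Macrophage (7 markers) and Leydig (6 markers) sums ranged from 73.5 to 118.7 on the cAMP arrays and from 90.1 to 143.2 on the control arrays, with 3 markers of each list at or below background throughout, among them the macrophage marker Adgre1 and the Leydig enzyme Cyp17a1. Macrophage markers went opposite ways: Cd68, under the filter on dim probe sets, read 28.1 and 45.2 on the cAMP arrays against 4.1 and 6.2 on the control arrays, and Lyz2 read 26.4 and 27.6 on the cAMP arrays against 47.3 and 108.6 on the control arrays (adjusted p = 0.0751 by limma). The part of these cells in the results below was not tested, and in such bulk samples fewer cells of a type and less RNA per cell cannot be told apart. Control replicate 2 had the highest ratio of 3' to 5' actin signal, 2.25, against 1.86 and 1.64 on the cAMP arrays and 1.80 on control replicate 1. The same ratio for Gapdh was lowest there, 0.903, against 0.930 and 0.937 on the cAMP arrays and 0.966 on control replicate 1.

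The upstream sequences of 2 of the 3 changed genes are shown because cAMP can act on genes through a DNA element, the cAMP response element (CRE), and because autophagy genes are known targets of TFEB, which binds the CLEAR element. The 250 bases before the first listed start of each gene were taken from RefSeq (GRCr8). Map1lc3a had no entry in that table, and 26 of the 30 members did. Capitals mark the GC box GGGCGG (or its reverse complement CCGCCC) and the CCAAT box, which were added to the search after the sequences had been seen.
Wipi1 (chr10:95079294-95079543, minus strand, 5′ to 3′): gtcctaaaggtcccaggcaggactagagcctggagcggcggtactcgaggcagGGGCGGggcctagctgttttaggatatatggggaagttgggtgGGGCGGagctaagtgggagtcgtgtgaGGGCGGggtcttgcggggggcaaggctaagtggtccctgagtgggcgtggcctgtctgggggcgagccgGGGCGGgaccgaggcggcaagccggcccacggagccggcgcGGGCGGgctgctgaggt
Uvrag (chr1:162854349-162854598, minus strand, 5′ to 3′): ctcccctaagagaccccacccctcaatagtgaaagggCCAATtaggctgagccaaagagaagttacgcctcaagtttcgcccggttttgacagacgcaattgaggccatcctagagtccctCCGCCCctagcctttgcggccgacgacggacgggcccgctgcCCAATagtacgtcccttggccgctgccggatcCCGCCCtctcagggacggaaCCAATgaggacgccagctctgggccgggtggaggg
The Wipi1 stretch held 5 GC boxes and no CCAAT, and the Uvrag stretch held 2 GC boxes and 3 CCAAT. Neither held the full CRE TGACGTCA, its short form TGACG (which lies within the full one), the E-box CACGTG or the CLEAR element (the E-box with GT before it and AC after it) on either strand.

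Over the 26 members with an entry, no upstream stretch held the full CRE or the CLEAR element, which 1.70% and 0.24% of the stretches of all 27457 genes held. The short CRE occurred in 7 of the 26 members (26.9%, against 19.0% of all genes), those of Atg10, Atg12, Atg2b, Atg4a, Atg5, Pik3r4 and Ulk2, none of which passed the test. The E-box, which lies within the CLEAR element, occurred upstream of Atg3 and Atg5 (7.69%, against 5.79%). A GC box stood in 17 of the 26 (65.4%, against 32.4%) and a CCAAT box in 8 (30.8%, against 34.3%). Both boxes were added after the Wipi1 and Uvrag sequences had been seen, and these 2 genes are counted among the 17. The background is all 27457 genes, not those tested on the arrays, and a difference from the tested genes was not tested. These are matches of letters within 250 bases and say nothing about binding.

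None of the 5 genes of the ULK1 initiation complex passed the test by limma, and 1 did at an unadjusted p under 0.05. That gene was Rb1cc1, which encodes the scaffold FIP200. It read 430.8 and 455.6 on the cAMP arrays, against 539.8 and 655.7 on the control arrays, a difference of -0.41 ± 0.15 (adjusted p = 0.121). Both cAMP arrays lay below both control arrays, and the gene's other tested probe set differed by -0.30 ± 0.16. Without control replicate 1, the lower of its control values, the difference was -0.55 and passed (adjusted p = 0.0204, with a range of 0.0204 to 0.513 over all 11 alternatives).

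The differences of the kinase genes had opposite signs, and neither passed. Ulk1 read 120.7 and 92.7 on the cAMP arrays and 127.4 and 129.4 on the control arrays (-0.24 ± 0.19), and its second tested probe set had the opposite sign (0.16 ± 0.22). Ulk2 read 96.3 and 93.8 with cAMP, just above the higher of its control values, 63.0 and 92.8 (0.26 ± 0.21). The regulatory subunit gene Atg13 differed by 0.24 ± 0.14 and its stabilising partner Atg101 by -0.18 ± 0.16. In each of these 5 genes the cAMP arrays did not overlap the control arrays, 2 lying above and 3 below, as was the case for 61.3% of all tested genes (28.8% above, 32.6% below).

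In the lipid kinase complex 1 of 6 genes changed. Uvrag encodes the subunit that defines the form of the complex acting in endosomes and late autophagosomes. It read 193.5 and 209.3 on the cAMP arrays, against 339.9 and 337.1 on the control arrays. The control values were almost equal, and the cAMP values lay well below both. The difference was -0.71 ± 0.15 (adjusted p = 0.0211), and only 1 probe set carries this gene.

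Atg14 encodes the alternative subunit, which directs the complex to the site where autophagosomes form. It read 121.5 and 113.5 on the cAMP arrays, against 140.4 and 153.3 on the control arrays, and did not pass (-0.29 ± 0.17). The difference between the responses of the 2 subunit genes was not tested. Becn1 encodes Beclin 1, the core of both forms. It read 831.6 and 797.8 on the cAMP arrays, against 649.8 and 468.9 on the control arrays, a difference of 0.55 ± 0.17 that did not pass (adjusted p = 0.0853). Its control values were much further apart than its cAMP values. Without control replicate 1 the difference was 0.78 and passed (adjusted p = 0.00405), and without control replicate 2 it was 0.32 and did not (adjusted p = 0.127), with a range of 0.00405 to 0.393 over the 11 alternatives.

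The catalytic subunit gene Pik3c3 read 126.4 and 133.1 on the cAMP arrays and 118.4 and 114.3 on the control arrays (0.14 ± 0.17). Pik3r4, its regulatory partner, read 183.5 and 204.9 with cAMP, against 153.2 and 133.7 in the controls (0.40 ± 0.17, adjusted p = 0.171). Ambra1, an activator that links Beclin 1 to ULK1, differed by -0.16 ± 0.17. In all 6 genes the cAMP arrays did not overlap the control arrays, Becn1, Pik3r4 and Pik3c3 lying above and Uvrag, Atg14 and Ambra1 below. Of all tested genes 61.3% also showed this, and whether the complex differs from them was not tested.

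Among the 5 genes for membrane supply and PI3P binding, 1 rose. Wipi1 read 348.2 and 332.7 on the cAMP arrays, against 236.1 and 185.3 on the control arrays. The cAMP arrays lay close together above both controls. The difference was 0.66 ± 0.17 (adjusted p = 0.0431), the weakest of the 3 calls. The gene's other probe set read 25.9 and 29.3 with cAMP and 29.5 and 12.2 in the controls (0.28 ± 0.27), with 1 control value below background. When both probe sets were averaged the difference was 0.47 and did not pass (adjusted p = 0.188), nor did Wipi1 pass without the filter on dim probe sets, without the intensity trend or without control replicate 2 (0.50, adjusted p = 0.0618). Its adjusted p ranged from 0.00716 to 0.300 over the 11 alternatives.

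The related gene Wipi2, whose protein recruits the LC3 conjugation machinery, read 150.3 and 125.3 on the cAMP arrays and 174.3 and 101.7 on the control arrays. Its control pair enclosed both cAMP values (0.03 ± 0.25), and the standard error was the largest among the members. Atg9a, the transmembrane lipid scramblase that seeds the membrane, read 151.4 and 152.1 with cAMP, against 212.6 and 206.3 in the controls. Both pairs were tight and apart, with a difference of -0.43 ± 0.16 that did not pass (adjusted p = 0.122). The second Atg9a probe set, at 33.4 and 37.9 with cAMP and 56.0 and 62.2 in the controls, also separated the groups (-0.54 ± 0.20, adjusted p = 0.120). The lipid transfer genes Atg2a and Atg2b had differences of 0.33 ± 0.20 and -0.35 ± 0.17, and the other tested probe set of Atg2b was at 0.06 ± 0.20.

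None of the 9 measured genes of the conjugation systems and their protease passed the test, nor did any at an unadjusted p under 0.05 (limma). These genes make and attach the ubiquitin-like tags: Atg7 encodes the activating enzyme, Atg3 and Atg10 the conjugating enzymes, and Atg12, Atg5 and Atg16l1 the complex that places LC3 on the membrane. Their differences ran from -0.26 to 0.36, with a median of 0.076, and every 95% interval lay inside a 2-fold change. In 4 of the 9 the arrays of the groups did not overlap, against 61.3% of all tested genes.

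Atg3 was even within each group, at 371.4 and 368.2 on the cAMP arrays and 416.4 and 415.0 on the control arrays (-0.16 ± 0.14). Atg16l1 read 160.8 and 160.6 with cAMP and 156.3 and 146.9 in the controls (0.08 ± 0.16). Atg7 read 115.9 and 121.1 with cAMP, and its controls, at 116.4 and 135.9, overlapped them (-0.08 ± 0.17). The signs of these 3 genes were mixed, and none of the differences passed.

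Atg10 had the largest difference of the group, at 138.9 and 157.0 on the cAMP arrays against 95.9 and 129.1 on the control arrays (0.36 ± 0.20). Atg5 read 142.9 and 147.6 with cAMP, against 125.1 and 100.9 in the controls (0.33 ± 0.18), and its 2 other tested probe sets differed by 0.21 ± 0.17 and -0.03 ± 0.26. For Atg12 the probe sets gave unlike values. The chosen one, at 595.4 and 670.3 with cAMP and 617.4 and 615.4 in the controls, differed by 0.03 ± 0.13, while the others differed by 0.43 ± 0.21 and 0.64 ± 0.21 (adjusted p = 0.231 and 0.0888). The ATG4 proteases prime LC3 and remove it from membranes: Atg4a differed by 0.08 ± 0.20, Atg4b by -0.26 ± 0.20 and Atg4d by 0.16 ± 0.19.

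Of the 3 measured genes for the LC3 and GABARAP proteins, which are conjugated to the membrane lipid and bind the cargo receptors, Map1lc3a changed. It read 976.5 and 942.2 on the cAMP arrays, against 629.9 and 508.0 on the control arrays. Each cAMP array was far above the higher control array. The difference, 0.75 ± 0.15, was the largest of the 30 (adjusted p = 0.0170), and only 1 probe set carries the gene. Without control replicate 2, its lower control, the difference was 0.59 and still passed (adjusted p = 0.0139). Its adjusted p ranged from 0.00203 to 0.186 over the 11 alternatives.

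Gabarap, with the same conjugation chemistry, read 1635 and 1750 on the cAMP arrays and 1494 and 1431 on the control arrays, and did not pass (0.21 ± 0.12). Gabarapl1 read 465.1 and 451.6 with cAMP and 545.1 and 490.8 in the controls (-0.17 ± 0.14). A second probe set of each gave nearly the same difference, 0.21 ± 0.22 for Gabarap and -0.18 ± 0.19 for Gabarapl1. Whether Map1lc3a differed from these 2 genes in its response was not tested.

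Both measured cargo receptors were lower on the cAMP arrays without passing. By limma, Optn had an unadjusted p under 0.05 (0.0482) and Sqstm1 did not (0.0511). Sqstm1 encodes p62, which binds ubiquitinated cargo and is itself degraded in autophagosomes. It read 1961 and 1861 on the cAMP arrays, against 2580 and 2154 on the control arrays, a difference of -0.30 ± 0.13 (adjusted p = 0.179). Its 2 other tested probe sets differed by -0.45 ± 0.19 and -0.11 ± 0.20, so all 3 had the same sign. Without control replicate 2 the difference was -0.43 and passed (adjusted p = 0.0260, with a range of 0.0260 to 0.612 over the 11 alternatives). Optn, which encodes the receptor optineurin, read 375.9 and 499.4 with cAMP, against 546.9 and 617.3 in the controls (-0.41 ± 0.17, adjusted p = 0.172). Its second probe set was at 0.19 ± 0.20.

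**Figure D3:**
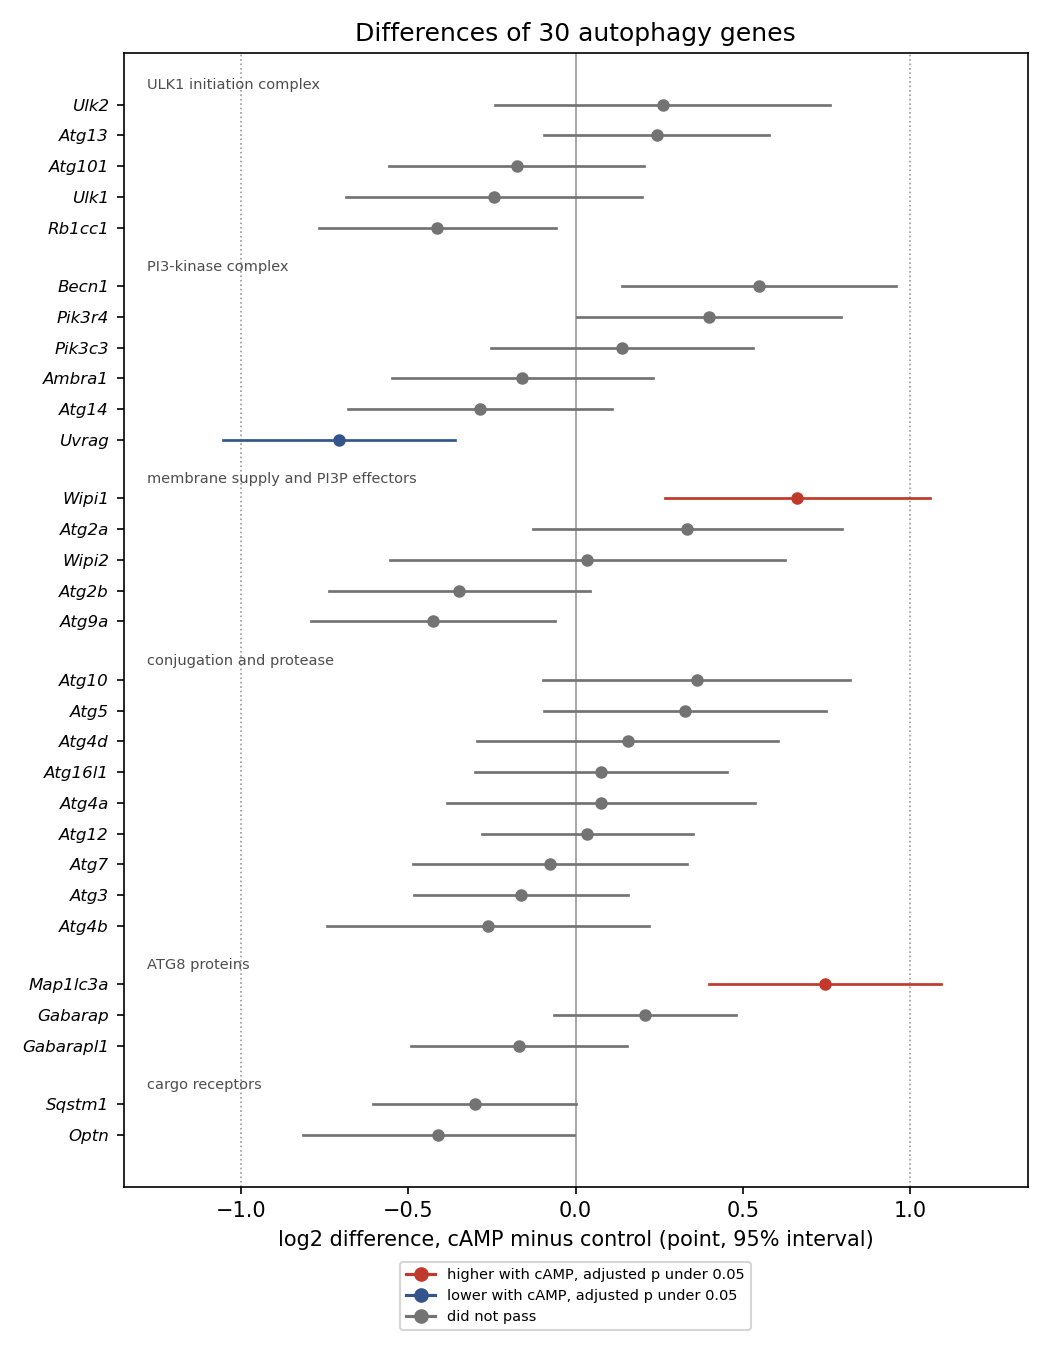
Log2 differences (cAMP minus control) of the 30 genes with their unadjusted 95% intervals, grouped by role, with dotted lines at a 2-fold change in either direction. Map1lc3a and Wipi1 (red) and Uvrag (blue) passed the threshold, and their intervals are the ones that cross a dotted line.

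Second probe sets allow a check within a gene. The 30 genes had 51 probe sets under their own symbols, 46 of them above the filter, and 13 genes had 16 tested probe sets beside the chosen one. Of these 16, 11 differed in the same direction as the chosen probe set and 5 in the opposite one, those of Atg2b, Atg7, Optn, Ulk1 and 1 of Atg5. The adjusted p of the 16 ran from 0.0888 to 0.951 by limma. At this depth of replication, 2 arrays a group, the directions of members with differences near 0 could not be told.

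All 3 calls rested on having both cAMP arrays. Without cAMP replicate 1 the differences were 0.72 for Map1lc3a, 0.63 for Wipi1 and -0.65 for Uvrag, with adjusted p of 0.186, 0.300 and 0.229 by limma, and none of the 30 members passed (3 at an unadjusted p under 0.05). Without cAMP replicate 2 they were 0.77, 0.69 and -0.76, with adjusted p of 0.146, 0.246 and 0.156, and again none passed (4 at an unadjusted p under 0.05). The share of all tested genes that passed was 4.67% and 5.00% in these fits. Without control replicate 1 it was 25.9%, and 5 members passed, Becn1 and Rb1cc1 being added.

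Around the machinery, 5 lists of genes that control it, feed it or act after it were described in the same way. Of their 71 genes 65 were tested, and 2 rose and 6 fell (12.3% of those tested, against the background of 15.4%), with a median difference of -0.018. Each list held 1 to 3 changed genes.

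Among 16 tested genes of mTORC1, AMPK and their links, Prkaa2 alone fell. It encodes the alpha2 catalytic subunit of AMPK, the energy sensor that activates ULK1. Prkaa2 read 91.6 and 117.8 on the cAMP arrays, against 255.7 and 407.4 on the control arrays, a difference of -1.50 ± 0.24 (adjusted p = 0.00744) and 0.32 times the control level. Both cAMP arrays lay far below both controls, though the controls were spread. It passed in 10 of the 11 alternatives, the exception being the one without cAMP replicate 1 (adjusted p = 0.0821, the highest of a range that starts at 0.000926). The alpha1 subunit gene Prkaa1 read 225.1 and 224.0 with cAMP and 226.6 and 215.2 in the controls (0.02 ± 0.15). Mtor itself differed by -0.22 ± 0.16, and Tsc1, which restrains mTORC1, by -0.59 ± 0.16 (adjusted p = 0.0556). Tsc1 did pass when all tested probe sets of a gene were averaged.

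The transcription factor TFEB and its relatives turn on autophagy and lysosomal genes, as FOXO factors do. Of 7 tested genes of this list Foxo3 fell, at 1200 and 1050 on the cAMP arrays against 1640 and 1802 on the control arrays (-0.61 ± 0.13, adjusted p = 0.0223). Tfeb read 74.0 and 62.0 with cAMP and 64.1 and 51.7 in the controls, which overlapped (0.19 ± 0.20). Tfe3 was at -0.23 ± 0.18 and Mitf at 0.54 ± 0.19, neither passing. Foxo1 had the largest difference, 0.92 ± 0.35, but its control arrays read 53.9 and 143.9 and it did not pass (adjusted p = 0.141).

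Of 13 tested genes that act on the Beclin 1 complex or early membranes, 2 rose and 1 fell. Vmp1 encodes a membrane protein of the endoplasmic reticulum needed for autophagosome formation. It read 857.7 and 982.4 on the cAMP arrays, against 521.8 and 366.9 on the control arrays, 2.10-fold higher (1.04 ± 0.19, adjusted p = 0.0115). Mtmr3, a phosphatase that removes PI3P, read 1047 and 998.3 with cAMP, against 642.1 and 701.2 in the controls (0.60 ± 0.13, adjusted p = 0.0229). The groups did not overlap for either gene.

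The gene that fell was Rubcn, which encodes Rubicon, an inhibitor that binds the UVRAG form of the lipid kinase complex. It read 132.4 and 148.9 on the cAMP arrays, against 291.8 and 298.1 on the control arrays, 0.48 times the control level (-0.99 ± 0.16, adjusted p = 0.00684). Its pairs were tight, as those of Uvrag were, and both genes were lower with cAMP. Tmem41b, a partner of Vmp1 in the endoplasmic reticulum, read 387.8 and 380.4 with cAMP, against 285.4 and 274.4 in the controls, without passing (0.44 ± 0.14, adjusted p = 0.0895).

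Among 15 other LC3-binding receptors and adaptors 2 fell, and both are receptors for the autophagy of endoplasmic reticulum. Calcoco1 read 240.0 and 250.9 on the cAMP arrays, against 401.4 and 354.0 on the control arrays (-0.59 ± 0.15, adjusted p = 0.0428). Ccpg1 read 226.5 and 240.2 with cAMP, against 334.5 and 371.5 in the controls (-0.56 ± 0.15, adjusted p = 0.0482), and its other tested probe set was at -0.64 ± 0.20. The other tested receptors of that kind did not pass, with Retreg1 at -0.07 ± 0.17 and Tex264 at 0.01 ± 0.15. The mitophagy receptor genes Bnip3 and Bnip3l were at 0.36 ± 0.14 and -0.15 ± 0.14.

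Of 14 tested genes for fusion of autophagosomes with lysosomes, Vps11, a core subunit of the tethering complexes, fell. It read 204.6 and 220.0 on the cAMP arrays, against 355.1 and 322.9 on the control arrays (-0.64 ± 0.15, adjusted p = 0.0332). The lysosomal membrane gene Lamp1 and the fusion GTPase gene Rab7a were higher on both cAMP arrays without passing, by 0.56 ± 0.15 (adjusted p = 0.0559) and 0.50 ± 0.14 (adjusted p = 0.0543). Lamp2 read 2554 and 2660 with cAMP and 2831 and 2816 in the controls (-0.11 ± 0.11).

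Of the 65 genes in these lists, 22 had an unadjusted p under 0.05 by limma with all 4 arrays, against 30.0% of all tested genes. Each of the 8 calls was lost without cAMP replicate 1, and all but that of Prkaa2 also without cAMP replicate 2. Calls over all tested genes were largely lost in these fits too. Over the 11 alternatives, which include each fit without 1 array, the 8 differences kept their direction. They ran from -1.819 to -1.179 for Prkaa2 and from -0.637 to -0.487 for Ccpg1. Foxo3, Calcoco1, Ccpg1 and Vps11 were lost without the filter on dim probe sets, where 9.74% of all tested genes passed. These 4 and Mtmr3 were lost without the intensity trend, where 12.1% of all tested genes passed. Calls were gained as well: leaving out either control array added genes of these lists, and quantile normalization added Phb2. Ccpg1 was the least steady, passing in 4 of the 11 alternatives (adjusted p from 0.0199 to 0.342).

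**Figure D4:**
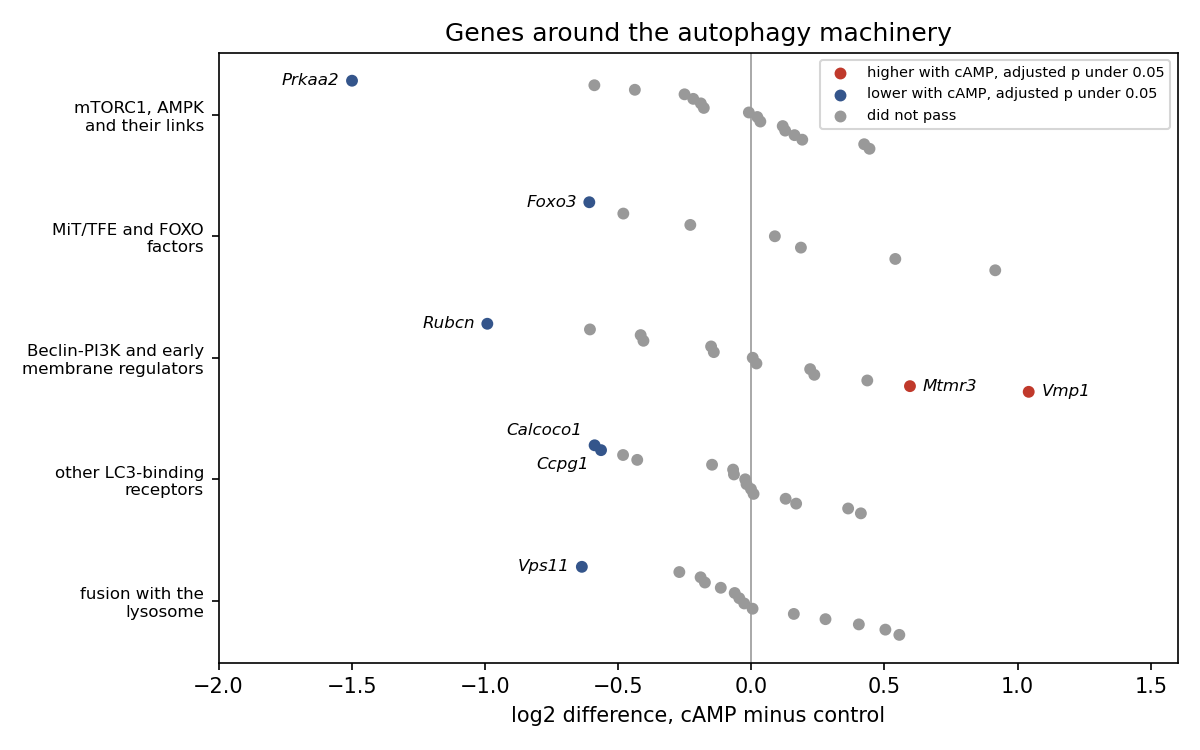
Log2 differences (cAMP minus control, horizontal axis) of the 65 tested genes in the 5 lists around the machinery, 1 point per gene and 1 row per list. Named points passed the threshold: Vmp1 and Mtmr3 were higher with cAMP (red) and Prkaa2, Rubcn, Foxo3, Calcoco1, Ccpg1 and Vps11 lower (blue).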

How the data were processed

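One-colour Affymetrix arrays of 2 cAMP and 2 control samples were used. The authors deposited linear intensities, 1 per probe set. The submitters' processing notes name GCOS and MAS5, while versions and settings are not stated there. The arrays' trimmed mean, without the lowest and highest 2%, was 125 on each, so they had been scaled, and medians ran from 31.3 to 33.7. Across genes, log2 signals correlated with r = 0.984 between the cAMP arrays, 0.967 between the control arrays and 0.895 to 0.925 between groups.

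From the deposited intensities, log2(signal + 16) was computed. Probe sets other than the 57 controls were tested if their mean reached the 40th percentile (a log2 value of 5.10). limma 3.58.1 in R 4.3.3 (lmFit, eBayes with an intensity trend, two-sided) compared the groups over 18625 probe sets, with Benjamini-Hochberg adjustment. The fit was tested on simulated data. Background was the highest signal of 27 Bacillus control probe sets, 14.2. Symbols came from the platform annotation, and 20764 of 20832 probe sets with a single symbol were matched to RefSeq (GRCr8), with 436 carrying several symbols and 9831 none. All 30 measured members are named, and of the 5 wider lists every changed gene. Other genes of those lists were named after their values were seen. The members and lists were chosen with earlier results of these data known. The number of arrays limits the precision. Protein sequences were not used here.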

Additional observations from a re-analysis of the deposited data

How the results depend on the processing

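With 2 arrays a group, the calls depended most on the arrays used. Over all probe sets, leaving out 1 array at a time gave between 408 and 2419 higher and between 305 and 2371 lower, fewest without cAMP replicate 1 and most without control replicate 1, with the lone array of a group assumed to vary like the other group. With no filter for dim signals 873 probe sets were higher and 725 lower, of 31042 tested. Of the 30 members, leaving out 1 array gave 0 to 3 higher and 0 to 2 lower by limma. Wipi1 was lost, leaving 1 higher member, with no filter, without the intensity trend and with probe sets averaged per gene. Pseudocounts of 4 and 64 and quantile normalization kept the same 3 members. The sign turned for 3 members that never passed: Atg7 (0.122 with probe sets averaged, -0.176 to 0.022 with 1 array left out), Atg12 (0.367 with probe sets averaged, -0.049 to 0.118) and Wipi2 (-0.312 to 0.381). The members' median, 0.035 with all arrays, was -0.003 without cAMP replicate 1. The differences of the other 27 members kept their direction. The causes were not tested. Replicate numbers are shared by the groups, but nothing in the labels pairs them, and deviations of same-numbered arrays correlated with r = 0.163. With a replicate block 1540 probe sets were higher and 1495 lower, and the same 3 members passed. In the wider lists it added Foxo1 and Lamp1 to the 8 changed genes. Dim genes and differences well under 2-fold are the least certain.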
